A study of Mus musculus with 7 samples.

Results

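The 33 genes described here encode the protein folding, quality control and stress sensing machinery of the endoplasmic reticulum (ER). They were chosen by name as rows of the deposited expression table, 33 of its 46959 features, and fall by role into 9 lumenal chaperones and co-chaperones, 3 genes of the calnexin cycle, 7 disulfide isomerases and oxidases, 9 genes of ER-associated degradation and 5 stress sensors and regulators. RNA came from purified mouse splenic B cells of genotype wildtype (WT, 3 libraries) or cKO MED1 (4 libraries), all held in culture for 4 days with lipopolysaccharide (LPS) at 1 µg/mL and interleukin 4 (IL-4) at 20 ng/mL. Med1 encodes a subunit of Mediator, the complex through which transcription factors contact RNA polymerase II. The labels name no Cre driver, deleted exon, strain, age or sex, and do not say whether each replicate was a separate mouse, so the p-values below measure the spread between these libraries, which may be technical.

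Secretory and membrane proteins fold in the ER with the help of chaperones such as BiP (Hspa5), of lectins that hold glycoproteins (calnexin and calreticulin) and of disulfide isomerases. When unfolded protein builds up, the sensors IRE1 (Ern1), PERK (Eif2ak3) and ATF6 start the unfolded protein response: IRE1 splices the Xbp1 message, PERK phosphorylates the translation factor eIF2α, and ATF6 moves to the Golgi, where it is cleaved into a transcription factor. These branches raise chaperone and degradation genes. LPS drives B cells towards antibody secretion, for which XBP1 and an enlarged ER are needed.

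Recovered reads numbered 31937372 to 61149274 per library; the shallowest WT library still held more than the deepest cKO MED1 library. Values below are normalised reads, that is whole reads scaled to a common library of 48019763, and fold changes are on the log2(normalised reads + 1) scale, cKO MED1 minus WT. Med1 had 4755, 4173 and 4210.1 normalised reads in WT and 2585, 2172, 2249 and 2436 in cKO MED1 (values always in replicate order), a change of -0.89 (limma adjusted p = 0.000174), so 53.9% of the WT mean remained. The labels do not give the deleted part of Med1, so reads outside it may be counted here. B cell markers were abundant in all 7 libraries, and their summed level over 8 genes was 173081 to 187191 in WT and 124544 to 139366 in cKO MED1, with 5 of 8 called lower. In such bulk libraries fewer cells of a type and less RNA per cell cannot be told apart. The sum of 10 T cell markers was 1839 to 2327 in WT and 1735 to 1967 in cKO MED1 (1 of 10 called lower). Most of it was Lck and Cd2, while Cd3e was at 0 to 9.15. Cd3d was at 4.90 to 10.4 in WT and 11.7 to 32.9 in cKO MED1. Cd4 was at 4.13 to 5.71 in WT and 5.42 to 32.9 in cKO MED1, whereas the mean of Tcf7 went from 31.8 to 28.4. Of 10 plasma cell markers 2 were called higher and 2 lower, with sums of 122927 to 166270.0 in WT and 102423 to 133150 in cKO MED1. In a list of 24 neuronal and muscle genes, drawn up as genes that B cells should not use, 10 were called higher. None of the 24 was below 10 normalised reads in every library. The sum ran from 1055 to 1481 in WT and was 1528, 1730.2, 2151 and 3415 in cKO MED1 replicates 1 to 4. Most of the WT sum was Ryr1, Camk2a and Ttn, which were thus not silent in these cultures. Their means were 437, 336 and 190 in WT and 446, 386 and 292 in cKO MED1. Sums of some other lists were also higher in every cKO MED1 library: 8 dendritic cell genes (2612 to 3538 in WT, 4041 to 5193 in cKO MED1, 3 called higher), 9 erythroid and platelet genes (99.1 to 197 and 216 to 600.3, 2 called higher) and 9 neutrophil genes (112 to 145 and 174 to 306, 1 called higher). Most of the dendritic cell sum was Flt3 (means 2163 in WT and 3360.0 in cKO MED1), and most of the neutrophil sum was Csf3r (116 and 153). The remaining sums overlapped between the groups: natural killer cell genes (175 to 271.5 and 96.2 to 271.3), macrophage and monocyte genes (452 to 803 and 590.0 to 805) and stromal and endothelial genes (1417 to 1678 and 1106 to 1470, 2 called higher and 1 lower). Y-linked Ddx3y was at 4496 to 4895 in the 3 WT libraries and at 4469.9 in cKO MED1 replicate 3, but at 0 to 4.07 in cKO MED1 replicates 1, 2 and 4, so sex and genotype largely cannot be told apart. Xist, expressed from the inactive X chromosome, was at 59.2, 1241 and 11.2 in WT and at 40414, 36381, 48.7 and 41073 in cKO MED1. The source of the Xist reads in WT replicate 2 was not tested. The part of depth, of these marker lists and of sex in the results below was not tested beyond the fits named.

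The promoters of these genes are shown first because the unfolded protein response acts through a known element, the ER stress element (ERSE), which NF-Y and ATF6 or XBP1 bind. It was searched on both strands as CCAAT and CCACG with any 9 bases between them, together with the shorter ERSE-II, searched as ATTGG and CCACG with any 1 base between them, in RefSeq windows of the build GRCm38.p6 that run from 250 bases before to 50 after each start. Of the 33 genes 29 had a window, and Atf6, Derl1, Hyou1 and Manf had none. In the windows of all genes, searched the same way, ERSE was found in 37 of 27025 genes (0.137%) and ERSE-II in 12 (0.0444%). Among the 29, ERSE was found in 9 (31.0%), and ERSE-II in Dnajb11 and Herpud1. The elements are given 5′ to 3′ in the orientation of the motif, with its fixed bases in capitals, because they are what 11 of these promoters share:
Hspa5: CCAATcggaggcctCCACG
Hsp90b1: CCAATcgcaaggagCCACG
Hsp90b1, second copy: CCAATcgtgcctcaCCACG
Dnajc3: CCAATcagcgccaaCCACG
Creld2: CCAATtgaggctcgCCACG
Canx: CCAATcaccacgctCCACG
Calr: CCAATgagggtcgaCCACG
Pdia6: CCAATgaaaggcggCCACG
Ero1lb: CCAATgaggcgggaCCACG
Syvn1: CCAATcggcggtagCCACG
Dnajb11, ERSE-II: ATTGGcCCACG
Herpud1, ERSE-II: ATTGGgCCACG

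Starts here are those of RefSeq, and GENCODE begins Hspa5, Hsp90b1, Pdia6, Ero1lb and Calr further upstream. The Hspa5 element lay at chr2:34772025-34772043, 65 to 47 bases before the start, and the Syvn1 element was nearer still, 44 to 26 bases before it (chr19:6046532-6046550). The Canx element lay at chr11:50325800-50325818, 145 to 127 bases before the start, and the Calr element at chr8:84847075-84847093, 162 to 144 bases before it and in the opposite orientation. Hsp90b1 carried a copy in each orientation, at chr10:86705638-86705656 and chr10:86705533-86705551. The Dnajb11 ERSE-II lay 7 to 17 bases after the start (chr16:22857852-22857862). The 250 bases before the start are printed for 3 genes whose results follow: Canx and Vcp, which both fell, the first with an ERSE and the second with neither element, and Creld2, which has an ERSE and did not pass the test. They are written 5′ to 3′ on the gene's strand, with the fixed ERSE bases in capitals (chr11:50325674-50325923, minus strand; chr4:43000508-43000757, minus strand; chr15:88819396-88819645, plus strand).
Canx: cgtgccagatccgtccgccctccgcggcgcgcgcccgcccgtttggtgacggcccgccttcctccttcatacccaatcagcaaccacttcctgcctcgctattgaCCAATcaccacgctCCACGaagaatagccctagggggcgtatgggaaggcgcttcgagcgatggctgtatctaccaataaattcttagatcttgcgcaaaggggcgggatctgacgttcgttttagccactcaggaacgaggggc
Vcp: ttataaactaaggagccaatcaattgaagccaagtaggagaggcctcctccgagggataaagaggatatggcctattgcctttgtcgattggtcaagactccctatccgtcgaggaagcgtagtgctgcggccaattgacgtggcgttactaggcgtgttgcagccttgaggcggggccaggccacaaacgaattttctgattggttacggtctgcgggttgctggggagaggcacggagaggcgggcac
Creld2: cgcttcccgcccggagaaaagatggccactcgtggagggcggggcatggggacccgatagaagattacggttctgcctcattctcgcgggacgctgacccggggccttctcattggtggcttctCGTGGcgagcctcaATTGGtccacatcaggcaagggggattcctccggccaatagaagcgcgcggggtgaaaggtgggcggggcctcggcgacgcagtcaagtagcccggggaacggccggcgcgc

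Across the 33 genes, 3 rose and 5 fell in cKO MED1 cells, with changes between -0.49 and 0.47 on the log2 scale. Ern1, Atf6 and Wfs1 rose, all in the group of sensors and regulators. Dnajb11, Canx, Pdia3, Vcp and Atf6b fell, 1 from each of the 5 groups. The central chaperone genes Hspa5, Hsp90b1 and Calr did not pass the test. Calls used limma on log2 values over 18062 genes and a threshold of 0.05 on the Benjamini-Hochberg adjusted p. The share called was 24.2% for these genes and 28.0% for all genes tested; 13.4% of all genes were called higher and 14.6% lower. Among the 6021 genes with the highest mean level, where 32 of the 33 genes lie, 5.6% were called higher and 27.8% lower, 33.4% in all. The share of these genes past the threshold was therefore not above either background. By direction, 9.09% of these genes were called higher and 15.2% lower. Against the most abundant genes, the share of rises was thus above and that of falls below, a difference that was not tested.

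The other 25 genes had a negative fold change in 17 cases and a positive in 8. With the called genes, 22 of 33 fold changes were negative, against 46.8% of all genes and 71.1% of the 6021 most abundant. The median was -0.14, that of all genes 0.04 and that of the most abundant genes -0.15. All 33 intervals (95%) lay within 1 unit of log2 on either side of 0 and 22 lay within 0.5, so changes of 2-fold were outside every interval. The groups did not overlap for 8 genes (5 lower, 3 higher), or 24.2%, against 39.1% of all genes (19.8% lower and 19.3% higher). At an unadjusted p under 0.05 stood 10 of the 33 genes, against 43.6% of all.

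**Figure D1:**
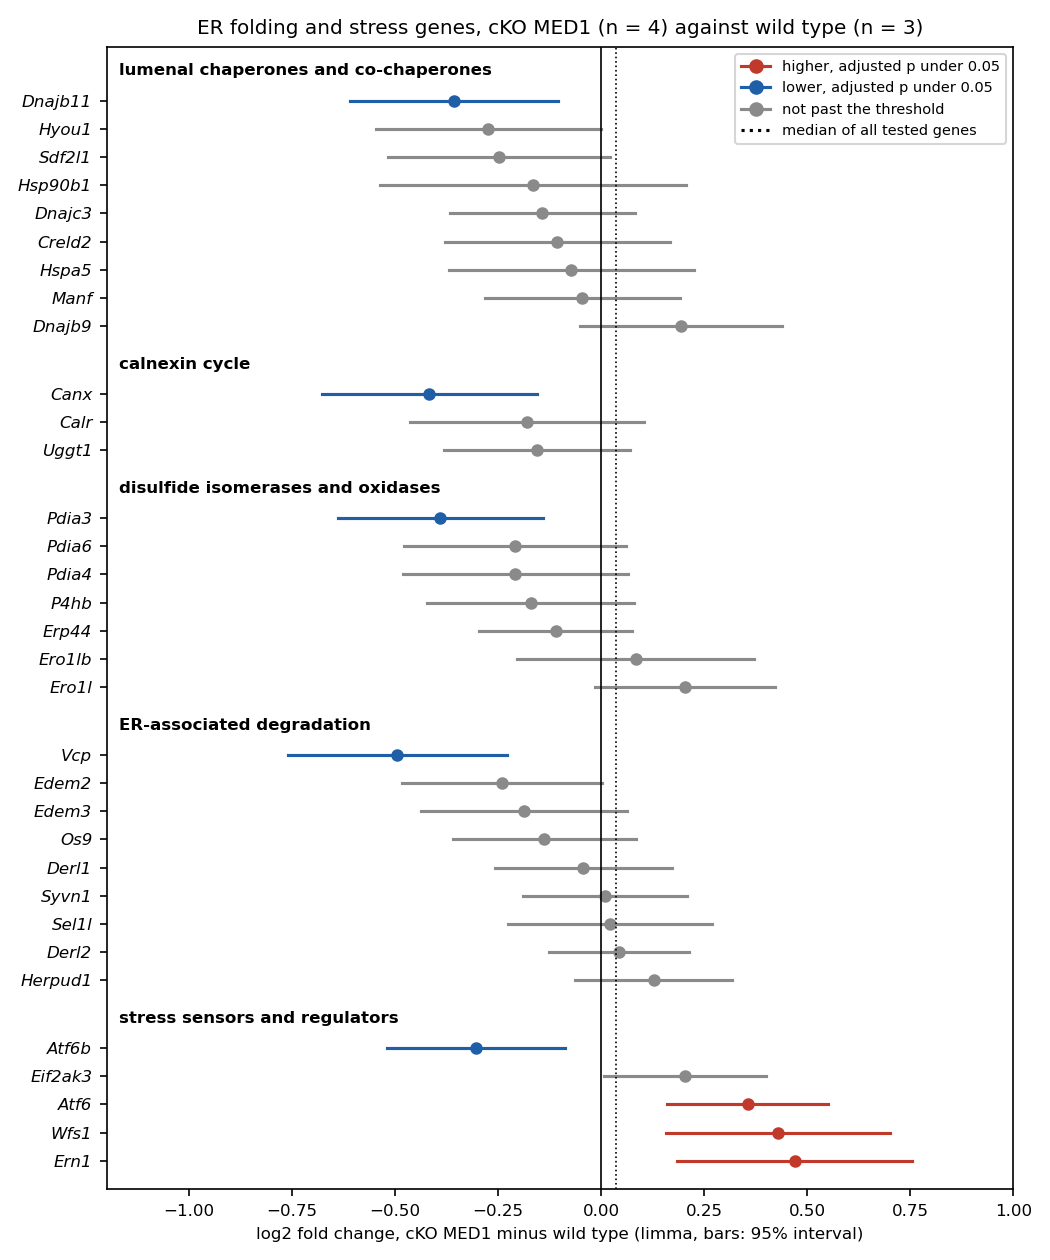
Log2 fold change (x axis, cKO MED1 minus WT) of each of the 33 genes in 5 groups by role, with limma's 95% interval as the bar and the median of all tested genes as the dotted line. Blue points (5) were called lower and red points (3) higher, and the red points all stand among the sensors and regulators.

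Of the 9 lumenal chaperones and co-chaperones, 1 fell, none rose and 8 did not pass the test, with a median of -0.14. Hspa5 encodes BiP, the main Hsp70 chaperone of the ER, which also holds the sensors inactive (chr2:34771970-34777547, plus strand, GRCm38, as are the positions below). It had 55689, 48332 and 58299 normalised reads in WT and 54479, 47348, 56999 and 47036 in cKO MED1. The groups overlapped throughout, with WT replicate 2 and cKO MED1 replicates 2 and 4 low and the other 4 libraries high. The change was -0.07 (SE 0.14, 95% interval -0.37 to 0.23, limma adjusted p = 0.705). Hsp90b1, the ER Hsp90, had 68813, 53368 and 75204 in WT and 64156, 50123, 68158 and 51882 in cKO MED1, with the same 3 libraries low. Its change was -0.17 (95% interval -0.54 to 0.21, adjusted p = 0.472).

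Dnajb11 (ERdj3; chr16:22857845-22879634, plus strand), a co-chaperone that delivers unfolded clients to BiP, was the chaperone gene that fell. It had 8139, 6769.6 and 7879.6 normalised reads in WT and 6301, 5430.3, 6844 and 5201 in cKO MED1. The groups overlapped narrowly, because cKO MED1 replicate 3 stood above WT replicate 2. The mean was 78.3% of WT, a change of -0.36 (SE 0.12, limma adjusted p = 0.0392). It was no longer called without WT replicate 1 (adjusted p = 0.126), WT replicate 3 (0.0727) or cKO MED1 replicate 2 (0.101) or 4 (0.116).

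The other members of the group gave changes from -0.27 to 0.19. Hyou1, a large Hsp70-like exchange factor for BiP, had 19109, 14995 and 18658 in WT and 15637, 12869, 16251 and 13380.0 in cKO MED1 (-0.27, adjusted p = 0.114). WT replicate 2 stood below cKO MED1 replicates 1 and 3. Sdf2l1, which works with Dnajb11 to keep clients soluble, had 5114, 4185 and 4552 in WT and 3748, 3967, 4685 and 3239 in cKO MED1 (-0.25, adjusted p = 0.143). Dnajc3 (p58IPK), a BiP co-chaperone, gave -0.14, and Creld2, a disulfide-handling protein induced by ER stress, gave -0.11. Manf, a secreted stress factor that binds BiP, gave -0.05 (95% interval -0.28 to 0.19, adjusted p = 0.765); its exons overlap those of Rbm15b on the same strand, so reads may be shared. Dnajb9 (ERdj4), a co-chaperone that represses IRE1, was the only 1 of the 9 with a positive change, 0.19 (1659, 1577 and 1952 in WT; 1757, 1806, 2243 and 2112 in cKO MED1; adjusted p = 0.204).

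In the calnexin cycle, which retains glycoproteins until they fold, 1 of 3 genes fell. Canx, the membrane lectin calnexin (chr11:50293961-50325673, minus strand), had 32709, 27921 and 28219 normalised reads in WT and 23677, 22914, 23185 and 19033 in cKO MED1. All 4 cKO MED1 libraries stood below all 3 WT libraries, replicate 4 lowest. The cKO MED1 mean was 75.0% of WT, a change of -0.42 (SE 0.12, 95% interval -0.68 to -0.16, limma adjusted p = 0.0267). Canx lost its call without WT replicate 1 (adjusted p = 0.129) or cKO MED1 replicate 4 (0.0601). Calr, its soluble lumenal counterpart calreticulin, had 50406, 42442 and 49964 in WT and 41661, 40996, 47319 and 38059 in cKO MED1 (-0.18, 95% interval -0.47 to 0.10, adjusted p = 0.301). The Calr groups overlapped at cKO MED1 replicate 3. Uggt1, the glucosyltransferase that returns misfolded glycoproteins to the cycle, gave -0.16 (adjusted p = 0.263). The difference between Canx and Calr was itself not tested.

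Of the 7 disulfide isomerases and oxidases, 1 fell and 6 did not pass the test. Pdia3 (ERp57; chr2:121413775-121438687, plus strand), the isomerase that calnexin and calreticulin bring to glycoproteins, had 16691, 14617 and 15931 normalised reads in WT and 12575, 12146, 13395 and 10111 in cKO MED1. No library of the groups overlapped. The mean was 76.6% of WT, a change of -0.39 (SE 0.11, limma adjusted p = 0.0281). The call did not hold without WT replicate 1 (adjusted p = 0.108) or 3 (0.0556), or without cKO MED1 replicate 2 (0.0513) or 4 (0.0658). Pdia3 lies across exons of Catsper2 on the opposite strand, and the sources used here do not say if the counting was strand-specific.

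The general isomerase P4hb gave -0.17, and Pdia4 and Pdia6 each gave -0.21 (adjusted p = 0.267, 0.215 and 0.209). Erp44, which retains assembly intermediates of secreted proteins such as IgM, had 5611, 5793 and 5971 in WT and 5429.6, 5559.9, 5581 and 4908 in cKO MED1. Its groups did not overlap, yet the change was -0.11 (95% interval -0.30 to 0.07) and did not pass the test (adjusted p = 0.333). The oxidases that recharge the isomerases had positive changes that did not pass the test. Ero1l gave 0.20 (5505, 5073 and 6426 in WT; 6659, 6921, 6111 and 6318 in cKO MED1; adjusted p = 0.138), and Ero1lb gave 0.08 (adjusted p = 0.65).

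ER-associated degradation (ERAD) takes misfolded proteins out of the ER to the proteasome. Of its 9 genes 1 fell, none rose and 8 did not pass the test. Vcp (p97; chr4:42979963-43000507, minus strand), the ATPase that pulls clients out of the membrane, had 15134, 12198 and 13317 normalised reads in WT and 10712, 9684, 10202 and 7950.1 in cKO MED1. All cKO MED1 libraries were below all WT libraries. The mean was 71.1% of WT, a change of -0.49 (SE 0.12, 95% interval -0.76 to -0.23, limma adjusted p = 0.0156), the largest in size among the 33 genes. Vcp lost its call without WT replicate 1 (adjusted p = 0.0713). A near-identical copy, Vcp-rs, may share reads with it and also fell, from 2271 to 1693 on average (-0.43, adjusted p = 0.0212). Vcp also has functions outside the ER.

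The ligase core of ERAD gave changes near 0 that did not pass the test. Syvn1 (Hrd1), the membrane ubiquitin ligase, had 6791, 5954 and 6404 in WT and 6892, 5956, 6594 and 6248 in cKO MED1 (0.01, 95% interval -0.19 to 0.21, adjusted p = 0.948). Its partner Sel1l gave 0.02 (95% interval -0.23 to 0.27, adjusted p = 0.895). Derl1 and Derl2, membrane proteins of the exit channel, gave -0.04 and 0.04, and Derl2 kept within 1818 to 1963 in all 7 libraries. Herpud1, a scaffold of the ligase, gave 0.13 (adjusted p = 0.281). The genes that read glycans gave negative changes that did not pass the test: the mannosidase-like Edem2 -0.24 (adjusted p = 0.117), Edem3 -0.19 (0.224) and the lectin Os9 -0.14 (0.312). Syvn1, Derl2 and Vcp lie across exons of Mrpl49, Mis12 and 1700022I11Rik on the opposite strand, as do Pdia6 and Atp6v1c2, so antisense reads may be counted.

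**Figure D2:**
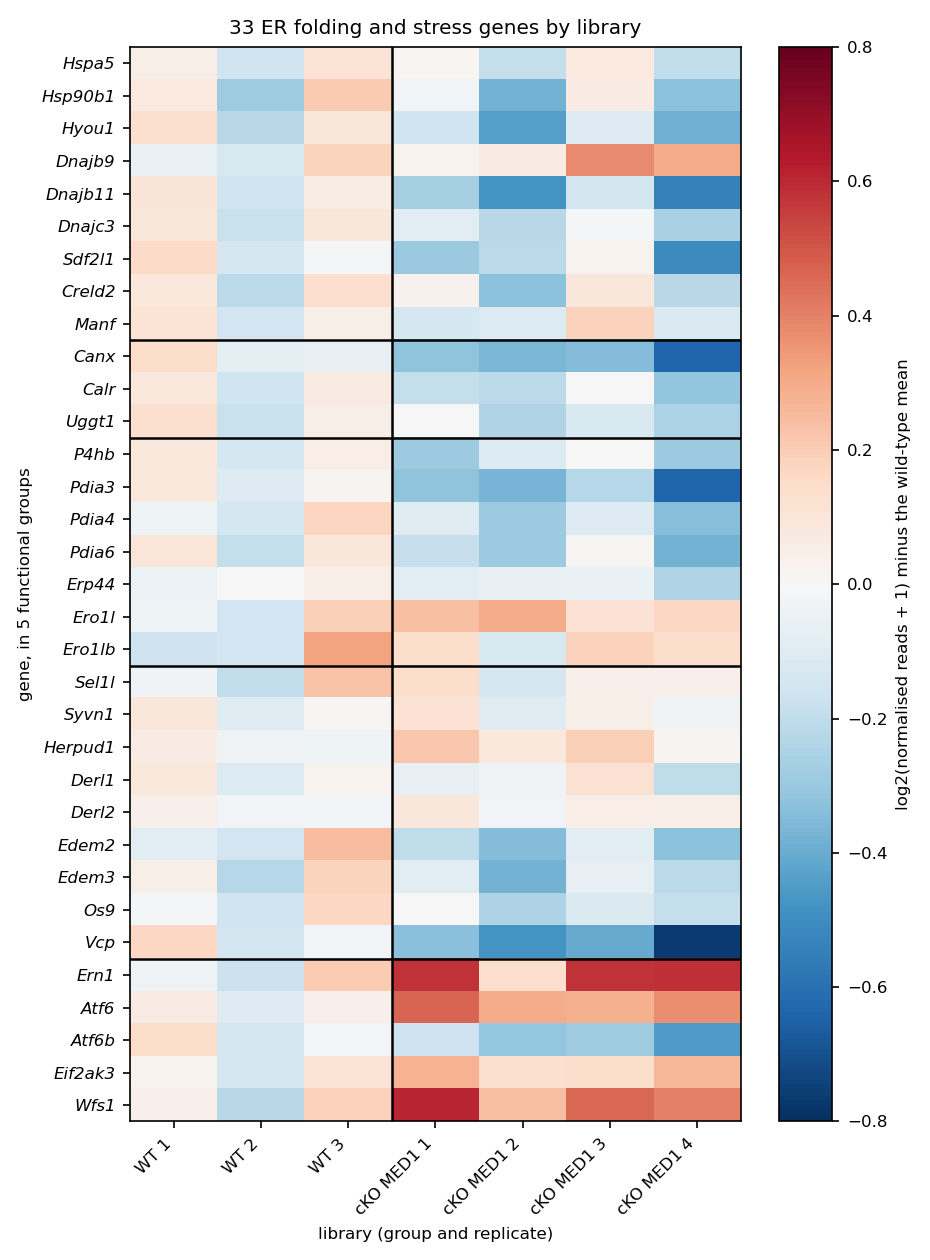
Each row is 1 of the 33 genes, in 5 groups, and each column 1 library; colour gives log2(normalised reads + 1) minus the WT mean of the gene (red above, blue below, on a scale from -0.8 to 0.8). Most rows are pale in WT replicates 1 and 3 and blue in WT replicate 2 and in cKO MED1 replicates 2 and 4. Ern1, Atf6, Eif2ak3 and Wfs1 are red in all 4 cKO MED1 libraries. Outside the sensors and regulators, Ero1l, Dnajb9 and Herpud1 are also above the WT mean in all 4, in places only slightly.

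The 5 stress sensors and regulators held all 3 genes that rose, and 1 that fell. Ern1, the kinase and RNase IRE1 that splices Xbp1 (chr11:106394650-106487852, minus strand), had 1158, 1049 and 1362 normalised reads in WT and 1769.7, 1297, 1770.1 and 1773 in cKO MED1. Replicates 1, 3 and 4 of cKO MED1 were nearly equal and above all WT libraries, and replicate 2 lay between WT replicates 1 and 3. The mean was 139% of WT, a change of 0.47 (SE 0.13, 95% interval 0.18 to 0.76, limma adjusted p = 0.0244). Ern1 lost its call without WT replicate 1 (adjusted p = 0.111), WT replicate 2 (0.121) or cKO MED1 replicate 4 (0.0539).

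Atf6, the membrane-bound transcription factor (chr1:170704674-170867771, minus strand), had 6913, 6163 and 6788 in WT and 9118, 8134, 8064 and 8554 in cKO MED1. Every cKO MED1 library stood above every WT library, with a gap wider than the range of the WT libraries. The mean was 128% of WT, a change of 0.35 (SE 0.09, 95% interval 0.16 to 0.55, limma adjusted p = 0.0173). The call did not hold without WT replicate 1 (adjusted p = 0.103), 2 (0.15) or 3 (0.0797). Its paralog Atf6b (chr17:34647146-34655074, plus strand), held to be a weaker activator, went the other way: it had 2088, 1719 and 1869.9 in WT and 1679, 1519.6, 1549 and 1378 in cKO MED1. The Atf6b groups did not overlap, by a narrow margin between WT replicate 2 and cKO MED1 replicate 1. The change was -0.30 (SE 0.10, adjusted p = 0.0402), and the call was lost when WT replicate 1 or 3 or cKO MED1 replicate 2, 3 or 4 was left out (adjusted p = 0.0587 to 0.149).

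Wfs1, a calcium-handling ER membrane protein that restrains ATF6 (chr5:36966104-36989205, minus strand), was the least abundant of the 33 genes. It had 438.6, 366.4 and 485.4 in WT and 653.1, 504.9, 587.4 and 565.5 in cKO MED1. The groups did not overlap, with cKO MED1 replicate 2 close above WT replicate 3. The mean was 134% of WT, a change of 0.43 (SE 0.12, 95% interval 0.16 to 0.70, limma adjusted p = 0.0278). The call did not hold without WT replicate 1 (adjusted p = 0.116), WT replicate 2 (0.184) or cKO MED1 replicate 1 (0.0533).

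Eif2ak3, the kinase PERK, had 2363, 2106 and 2501 in WT and 2808, 2534, 2549.7 and 2789 in cKO MED1. The groups did not overlap, but the change of 0.20 (95% interval 0.01 to 0.40) did not pass the test (adjusted p = 0.105).

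The 3 rises depended on how the libraries were scaled, though no scaling reversed them. With the size factors of the deposited table Ern1 gave 0.34 (adjusted p = 0.0798), Atf6 0.22 (0.202) and Wfs1 0.30 (0.129), so none was called (11.8% of all genes were higher and 19.8% lower). That scaling moved the median of all genes to -0.10 and that of the 33 genes to -0.27, and scaling to total reads moved them to -0.21 and -0.38. Relative to the median of all genes, the median of the 33 genes was -0.17 in the reported fit and under 4 of the 5 other scalings, and -0.18 with total reads. The 5 falls were called under each of the 5 other scalings. Total reads, and TMM factors computed over all features, added Hyou1, Sdf2l1 and Edem2 (24.2% of all genes lower and 11.3% higher in either fit). The small positive changes of Ero1lb, Sel1l, Syvn1, Herpud1 and Derl2 turned negative with both of these and with the deposited size factors, and with total reads so did those of Dnajb9, Ero1l and Eif2ak3.

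**Figure D3:**
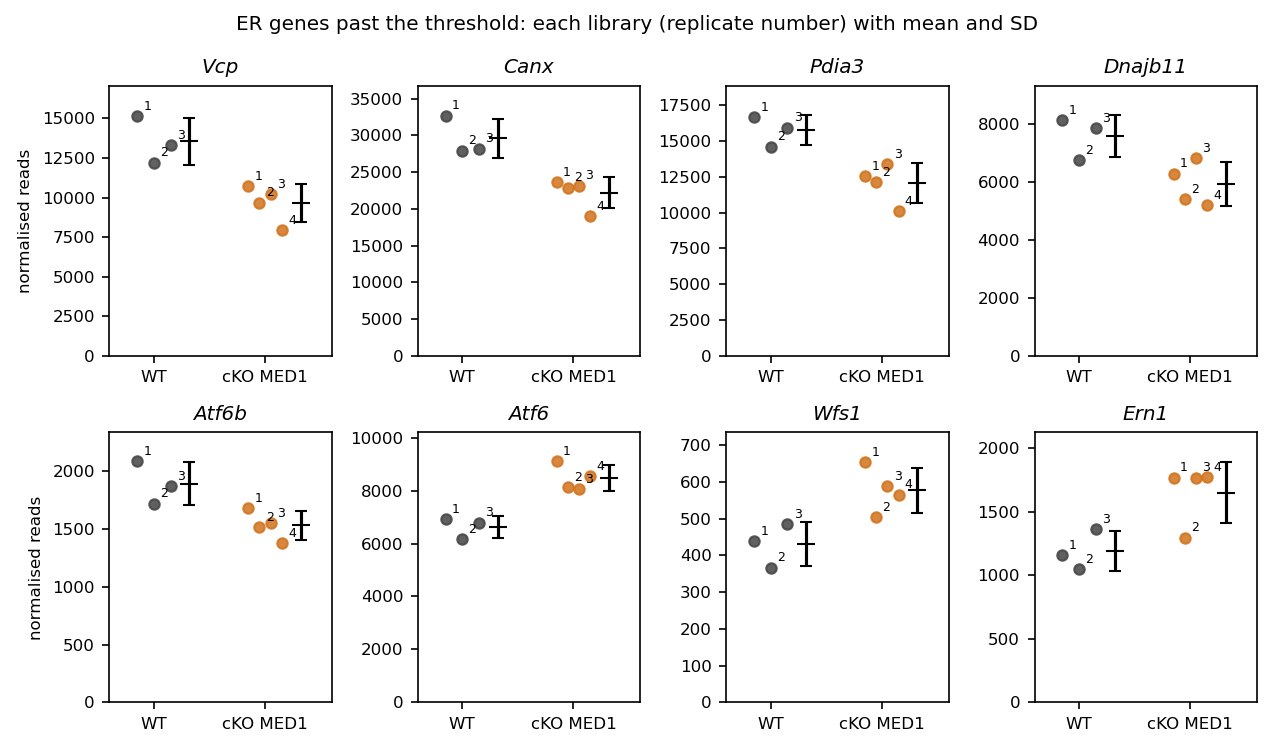
Normalised reads (y axis, from 0) of the 8 genes past the threshold in each WT (grey) and cKO MED1 (orange) library, numbered by replicate, with the group mean and SD at the right of each group (n = 3 and 4). The groups overlap for Dnajb11 and Ern1 and not for the other 6.

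The libraries differed among themselves over the whole set. WT replicate 2 was the lowest WT library for 29 of the 33 genes, and cKO MED1 replicate 4 the lowest of its group for 16. As a median deviation from the WT mean, the 33 genes stood at 0.08, -0.15 and 0.09 in WT and at -0.07, -0.21, 0.03 and -0.22 in cKO MED1. The cKO MED1 libraries thus fell into a higher pair (1 and 3) and a lower pair (2 and 4), and WT replicate 2 lay between them. The 5 sensors and regulators stood at 0.04, -0.14 and 0.11 in WT and at 0.46, 0.13, 0.29 and 0.37 in cKO MED1, above every WT value. Together the 33 genes took 0.855% to 1.08% of all reads in WT and 0.610% to 0.889% in cKO MED1, a share of total reads that also moves with the scaling.

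Levels were compared between genes as normalised reads per kb of exon in WT. Calr (16529) and Hsp90b1 (16318) were highest, at ranks 145 and 149 of 17312 genes with a known length, followed by Pdia4 (14680.1, rank 169) and Hspa5 (12794, rank 193). The sensors lay below these 4: Atf6 at 717 (rank 2432), Atf6b at 686 (2528), Eif2ak3 at 385 (4234), Ern1 at 146 (7692) and Wfs1 at 114 (8465). The 9 lumenal chaperones and co-chaperones ran from rank 149 to rank 2551, and the lowest of them, Dnajb9 (679), lay below Atf6 and Atf6b.

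Over the 7 libraries, Hsp90b1 (Pearson r = 0.989), Creld2 (0.979) and Dnajc3 (0.941) followed Hspa5 most closely among these genes, on the log2 scale, and 11 in all had r above 0.8. The called genes were spread from 0.80 for Dnajb11 to -0.11 for Atf6. Both the count and the spread changed without cKO MED1 replicates 2 and 4, the 2 libraries farthest from the median of Hspa5. Then 4 of the 11 (Hsp90b1, Creld2, Dnajc3 and Edem3) stayed above 0.8, and Dnajb11 gave 0.44 and Atf6 0.41. Outside the ER lists, among 11038 genes with at least 100 normalised reads, the 5 most like Hspa5 were Atl2 (0.946), Zfp438 (0.938), Sec31a (0.938), Gbf1 (0.932) and Alpl (0.932), which gave 0.867 to 0.970 without those 2 libraries. By rank (Spearman, all 7 libraries) these 5 ran from 0.571 for Gbf1 and 0.786 for Sec31a to 0.964 for Atl2. Atl2 shapes ER tubules, Sec31a coats vesicles that leave the ER, and Gbf1 activates the Arf GTPases of the Golgi. No such role is given here for Zfp438 and Alpl, and a shared theme was not tested. Leaving out the libraries most extreme in Hspa5 narrows its range, which by itself can lower r. Of the libraries then left, only WT replicate 2 was low in Hspa5. It stood at -0.16 from the WT mean on the log2 scale, and the others at 0.01 to 0.11. The part of WT replicate 2 in those r values was not tested. All r values are descriptions over libraries that share the same groups and scaling, with no test.

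Genes with and without an element had near-equal median changes. Atf6, which rose, had no window and is not counted here. Of the 11 genes with an ERSE or ERSE-II, 2 fell (Canx and Dnajb11) and none rose, with a median change of -0.14 and a range of -0.42 to 0.13. Of the 18 with neither, 3 fell and 2 rose, with a median of -0.15 and a range of -0.49 to 0.47. No difference between these sets was tested, and a window without a match says only that these letters are not in it.

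The other genes of the pathway were taken from 6 lists of 67 genes, all of which were tested. Of these 5 rose and 11 fell (23.9% called, background 28.0%), with a median of -0.17. In the IRE1 and XBP1 branch, 1 of 9 rose and none fell. Xbp1 had 30097, 26231 and 37408 normalised reads in WT and 24719, 23961, 26166 and 22847 in cKO MED1, without overlap, yet did not pass the test (-0.34, 95% interval -0.63 to -0.05, limma adjusted p = 0.0705). Spliced and unspliced Xbp1 cannot be told apart in values per gene. Derl3, an ERAD channel gene of secretory cells, rose from 1779, 1723 and 2479 to 3022, 2510.0, 3294 and 3248 (0.61, SE 0.14, adjusted p = 0.0112). Edem1, a mannosidase-like ERAD gene, was at 0.01 (95% interval -0.28 to 0.29, adjusted p = 0.969).

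In the PERK and ATF4 branch, 1 of 10 genes rose and 2 fell. Ddit3, the stress-induced transcription factor CHOP, had 515.0, 537.7 and 518.2 in WT and 746.6, 695.0, 608.5 and 759.5 in cKO MED1 (0.42, SE 0.10, limma adjusted p = 0.0151), without overlap. Eif2s1, which encodes eIF2α, gave -0.35 (adjusted p = 0.0399), and Ppp1r15b, the constitutive partner of the phosphatase that resets it, gave -0.33 (0.0317). Atf4, whose protein is controlled mainly at translation, gave -0.14 (95% interval -0.33 to 0.05, adjusted p = 0.22). Under the deposited size factors Ddit3 gave 0.29 and did not pass (adjusted p = 0.0963).

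Of 6 genes of ATF6 activation 2 fell and none rose. Nfyc, a subunit of the CCAAT-binding NF-Y, gave -0.42 (limma adjusted p = 0.0137), and Yy1, a cofactor of ATF6, gave -0.25 (0.0444). In the list of 17 other folding and oxidation genes, 2 rose and 3 fell. Txndc5, a disulfide isomerase that is abundant in plasma cells, had 20259, 17519.7 and 25686 in WT and 12029, 11056, 13877 and 10174 in cKO MED1. Each cKO MED1 library was below each WT library, and the mean was 55.7% of WT (-0.84, SE 0.14, adjusted p = 0.00353). Fkbp11, a prolyl isomerase of secretory cells, gave -0.81 (adjusted p = 0.0146) and Sumf1 -0.30 (0.043). The oxidase Qsox1 gave 0.37 (0.0236), and the collagen chaperone Serpinh1, with 11.0 to 14.4 in WT and 16.6 to 39.3 in cKO MED1, gave 1.12 (0.0421). The 10 plasma cell markers, of which 2 were called higher and 2 lower, went both ways: Jchain had 35622 to 62597 in WT and 10728 to 27607 in cKO MED1, and Prdm1 had 2150.2 to 3436 in WT and 3696 to 4758 in cKO MED1. The part of these markers in the Txndc5 and Fkbp11 values was not tested.

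Among 8 genes of glycan processing 2 fell and none rose: Mogs, the first glucosidase of the pathway, gave -0.72 (60.9% of WT, limma adjusted p = 0.0043), and the mannosidase Man1b1 gave -0.34 (0.032). Among 17 other degradation genes 2 fell and 1 rose. Nploc4, an adaptor that brings clients to Vcp, gave -0.36 (adjusted p = 0.0337), the ligase gene Rnf139 gave -0.29 (0.0326), and Fam8a1, a partner of Syvn1, gave 0.28 (0.0336). For 30 of the 67 genes the groups did not overlap (44.8%, background 39.1%), 25 of them lower and 5 higher (backgrounds 19.8% and 19.3%). These backgrounds are over genes of all levels. Of the 67 genes 47 lie among the 6021 with the highest mean level, where 27.8% were called lower and 5.6% higher. The share without overlap at that level was not computed.

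**Figure D4:**
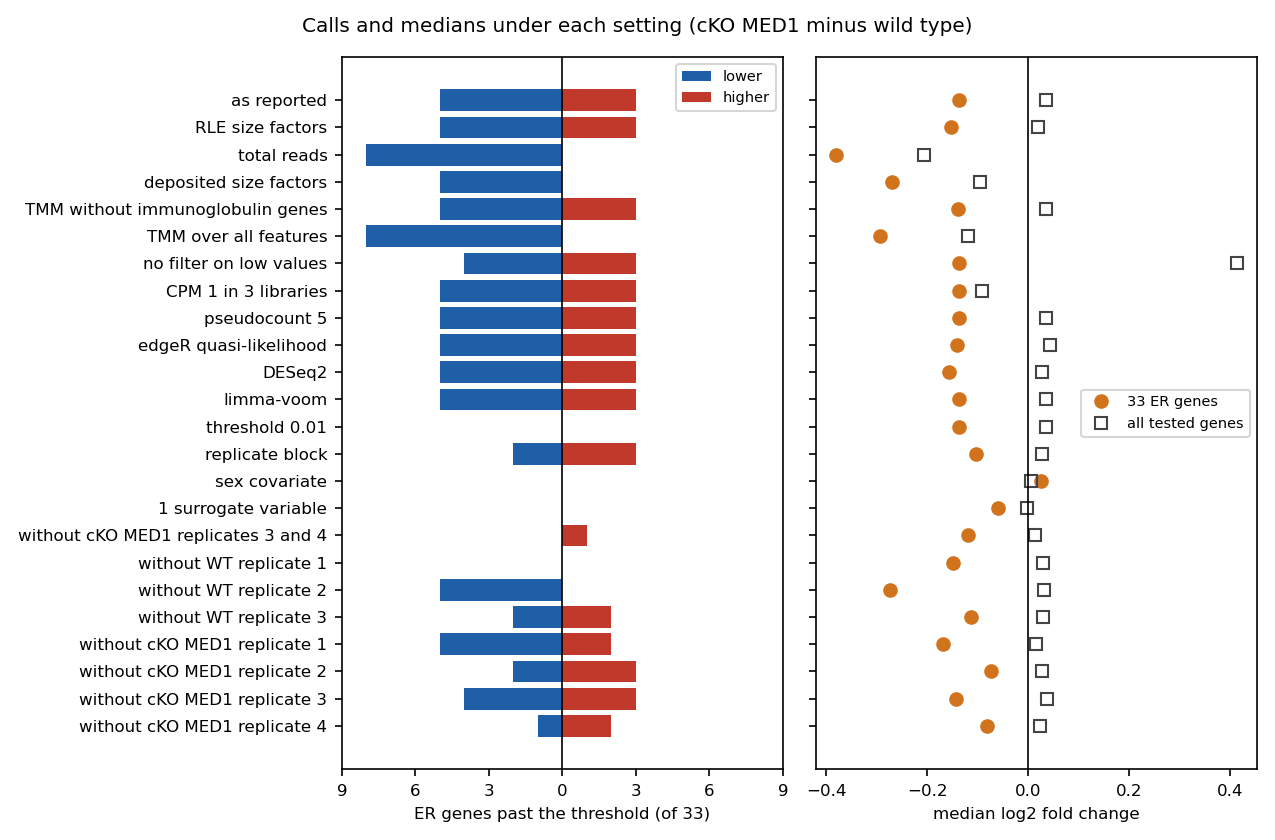
Left, number of the 33 genes called lower (blue, to the left) and higher (red, to the right) in cKO MED1 under the reported fit and 23 alternatives; right, the median log2 fold change of the 33 genes (filled) and of all tested genes (open). The 3 rises are absent under the scalings by total reads, deposited size factors and all features and without WT replicate 2, and no gene is called with sex as a covariate, with 1 surrogate variable, at a threshold of 0.01 or without WT replicate 1.

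The counts in that plot were read against the share of all genes called lower and then higher in the same fit. Where the 5 falls and 3 rises stood as reported, those shares were 15.2% and 13.1% with RLE size factors, 14.7% and 13.4% with TMM factors without immunoglobulin genes, 21.2% and 9.95% with a filter of CPM 1, 14.4% and 12.5% with a pseudocount of 5, 14.8% and 14.8% with edgeR, 16.8% and 17.2% with DESeq2 and 14.4% and 10.5% with limma-voom. Without a filter, where Atf6b was lost, they were 5.22% and 5.92%, and with the replicate number as a block, where Canx, Pdia3 and Atf6b were lost, 10.1% and 10.6%. The fits that called none of the 33 genes also called fewer of all genes than the reported fit: 4.4% and 2.84% at a threshold of 0.01, 0.659% and 0.603% with sex as a covariate, 0.615% and 0.72% with 1 surrogate variable, and 5.25% and 2.69% without WT replicate 1. Without WT replicate 2, where the 3 rises were lost, the shares were 10.9% and 6.96%, and without WT replicate 3, where Canx, Vcp, Ern1 and Wfs1 were called, 13.1% and 8.23%. Without cKO MED1 replicates 1, 2, 3 and 4 in turn they were 17.5% and 16.9%, 12.8% and 12.9%, 12.0% and 9.72%, and 8.9% and 7.53%. Vcp was called in each of these 4 fits. The fit without replicate 3 holds no male cKO MED1 library, so sex and genotype cannot be told apart in it.

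With sex as a covariate, a fit in which the genotype estimate rests on the single male cKO MED1 library (replicate 3), none of the 33 genes was called by limma (3 had an unadjusted p under 0.05), and 1.26% of all genes were. Ern1 then gave 0.58 (limma adjusted p = 0.176), Atf6 0.29 (0.244), Vcp -0.40 (0.237) and Canx -0.35 (0.282). Without cKO MED1 replicates 3 and 4, the 2 with the largest neuronal and muscle sums, Atf6 alone of the 33 genes was called. Of all genes 12.3% were called (7.34% lower and 5.0% higher), and Vcp gave -0.40 (limma adjusted p = 0.0544). That fit too holds no male cKO MED1 library, so sex and genotype cannot be told apart in it.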

How the data were processed

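The authors deposited 1 table for the 7 libraries whose unit is a signal: reads per gene divided by 1 size factor per library, as its values show, since 100% were whole multiples of a library's smallest step (tolerance 1e-06). The submitters' processing notes list DESeq2, R 3.4, Subread 1.5.0-p3 with featureCounts, and STAR 2.4.0a, on the build GRCm38 (mm10). The kit was stranded, but no source used here says if the counting was. Whole reads were recovered and the phiX174 spike-in row (at most 0.000383% of reads) was left out. TMM factors (edgeR 4.0.16) on the 18062 genes that filterByExpr kept gave normalised reads. Groups were compared with limma-trend (limma 3.58.1, R 4.3.3) on log2(normalised reads + 1), two-sided, with Benjamini-Hochberg adjustment over all 18062 genes; intervals cover 95%. Recovered depth was 31937372 to 61149274 reads, and the spread between replicates sets the precision. The fit was tested on simulated data.

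The 33 genes and all lists were chosen with earlier results of these data known. Named genes are the 33, Med1, Xbp1, Atf4, Ddit3, Edem1, Derl3 and Txndc5 whatever their result. Every other pathway gene past the threshold and the 5 genes most like Hspa5 are named too. Genes outside this rule (Lck, Cd2, Cd3d, Cd3e, Cd4, Tcf7, Ryr1, Camk2a, Ttn, Flt3, Csf3r, Jchain, Prdm1, Ddx3y, Xist, Vcp-rs) were chosen after their values were seen. Gene positions and exon lengths are from GENCODE M21 on GRCm38 and promoters from RefSeq on GRCm38.p6. Alternatives were 22 planned settings, among them edgeR's quasi-likelihood test, DESeq2 1.42.0, limma-voom and a surrogate variable (sva 3.50.0), and 1 added after seeing the data, TMM factors over all features.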

Additional observations from a re-analysis of the deposited data

Results flagged for a closer look

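In 6 of 53 genes checked, 1 of the 4 cKO MED1 libraries stood apart from the other 3 so far that the gap, divided by the range, passed Dixon's 95% critical value. Chance flags about 1 in 20 groups. Among the 33 genes these were Manf in replicate 3 (8979 normalised reads, gap over range 0.926), Canx in replicate 4 (19033, 0.836), Ero1lb in replicate 2 (7582, 0.848) and Ern1 in replicate 2 (1297, 0.992). In the pathway lists they were Atf4 in replicate 1 (7580.1, 0.89) and Nfyc in replicate 4 (856.5, 0.893). For Canx and Nfyc the library apart was the lowest of all 7, and for Ern1 it was the cKO MED1 library nearest to WT.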

How the results depend on the processing

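The counts of 3 higher and 5 lower among the 33 genes held with RLE size factors, TMM factors without immunoglobulin genes, a filter of CPM 1 in 3 libraries, a pseudocount of 5, edgeR, DESeq2 and limma-voom. Without a filter Atf6b was lost, and 3 pathway genes were higher instead of 5. With deposited size factors the 33 genes gave 0 higher and 5 lower and the pathway 2 and 20. Total reads gave 0 and 8, and 0 and 27 in the pathway, with 4379 of all genes lower. TMM factors over all features gave 0 and 8, and 2 and 32, with 4363 lower. DESeq2 called 17 pathway genes lower. The filter of CPM 1 called 1250.0 of all genes higher. A threshold of 0.01 called none of the 33 genes, and 0 and 2 pathway genes (513 and 794 of all genes). A surrogate variable or sex as a covariate called 0 genes in both sets (130 and 111, and 109 and 119, of all genes); in the limma fits with a surrogate variable or sex, 3 of the 33 genes had an unadjusted p under 0.05. Without cKO MED1 replicates 3 and 4 the counts were 1 and 0, and 2 and 4 in the pathway (869 and 1276 of all genes).

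Leaving out 1 library gave 0 to 3 higher and 0 to 5 lower among the 33 genes, 0 to 6 higher and 3 to 16 lower in the pathway, and 527 to 3012 higher and 1029 to 3114 lower among all genes; no gene of the 33 was called by limma without WT replicate 1, where 9 had an unadjusted p under 0.05. Each of these fits held fewer libraries than the reported fit, and the causes of the shifts were not tested. The labels give replicate numbers, but do not say that the same number pairs a WT and a cKO MED1 library. The correlations of deviations from the group means were 0.51, -0.23 and 0.16 for numbers 1, 2 and 3. Between unlike numbers they ran from -0.58 (WT 1 with cKO MED1 4) to 0.40 (WT 2 with cKO MED1 4). Deviations within a group sum to 0, so these values cannot decide if the libraries were paired. With the replicate number as a block the 33 genes gave 3 higher and 2 lower (Dnajb11 and Vcp), and the pathway 2 and 5.

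The changes that reversed were of genes not past the threshold. They were, with RLE size factors, Syvn1 -0.0069 and Edem1 -0.0081; with total reads, Dnajb9 -0.0499, Ero1l -0.0397, Ero1lb -0.16, Sel1l -0.22, Syvn1 -0.23, Herpud1 -0.12, Derl2 -0.20, Eif2ak3 -0.0404 and Edem1 -0.24; with deposited size factors, Ero1lb -0.049, Sel1l -0.11, Syvn1 -0.12, Herpud1 -0.0057, Derl2 -0.0898 and Edem1 -0.12; with TMM factors over all features, Ero1lb -0.0732, Sel1l -0.13, Syvn1 -0.15, Herpud1 -0.029, Derl2 -0.11 and Edem1 -0.15; with DESeq2, Sel1l -0.0013, Syvn1 -0.0064 and Edem1 -0.015; with the replicate block, Derl1 0.010; with sex as a covariate, Hspa5 0.0797, Hsp90b1 0.0657, Sdf2l1 0.026, Creld2 0.0933, Manf 0.18, Pdia6 0.0091 and Derl1 0.12; with a surrogate variable, Dnajb9 -0.00087, Ero1lb -0.0623 and Derl1 0.045; and without cKO MED1 replicates 3 and 4, Edem1 -0.013. Over the fits without 1 library, Derl1 ran from -0.16 to 0.033, Derl2 from -0.023 to 0.092, Edem1 from -0.18 to 0.075, Ero1lb from -0.051 to 0.19, Manf from -0.18 to 0.0031, Sel1l from -0.13 to 0.10 and Syvn1 from -0.097 to 0.072.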
